A study of Drosophila melanogaster with 9 samples.

Results

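A set of 6 genes of the adult fly intestine was followed across 3 diets: the progenitor markers escargot (esg) and Delta (Dl), the epidermal growth factor receptor (EGFR) ligands spitz (spi), Keren (Krn) and vein (vn), and the cytokine unpaired 3 (upd3). They were chosen by name, and all 6 were among the 10245 genes measured. RNA was sequenced from whole guts dissected from adult females of the Oregon R strain of Drosophila melanogaster. The flies had been given agar, 10% glucose or standard medium, and each diet had 3 biological repeats, which gives 9 libraries. The age of the flies and the time on each diet were not given in the sources used here. No transgene or mutation is named for any group, so the groups differ by diet alone as far as the labels say.

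The lining of the adult midgut is renewed by intestinal stem cells, which divide to give enteroblasts that mature into absorptive enterocytes, and to give hormone-secreting enteroendocrine cells. Division of the stem cells is driven by mitogens from the surrounding tissue, among them EGFR ligands acting through Ras and MAP kinase, and unpaired cytokines acting through JAK and STAT. Notch signalling, set off by Delta on the stem cell, steers the daughter cell's fate.

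Expression was given as RPKM, which scales the reads of a gene by transcript length and by library size. Library totals recovered from the values were 34899709 to 48389188 reads, and 1 read per kilobase stood for 0.0207 to 0.0287 RPKM. The libraries of the standard diet were not alike: along the first principal component, which held 52.2% of the variance, replicate 1 (7.16) lay nearer to the agar and glucose libraries (-20.1 to -10.4) than to standard replicates 2 (42.5) and 3 (40.01). The 100 most abundant genes held 56.4% to 63.5% of the summed RPKM in the standard libraries and 44.7% to 53.4% in the others. The main test covered the 8036 genes that reached 1 RPKM in 3 or more libraries, on the log2(RPKM + 1) scale. Their median difference was -0.02 between glucose and agar, 0.25 between glucose and standard medium, and 0.28 between agar and standard medium. What part these differences between libraries have in the results below was not tested.

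The 6 genes fell into an abundant and a scarce set. By mean RPKM over the 9 libraries the order was spi (12.7), Krn (7.98), esg (5.09), vn (0.397), upd3 (0.282) and Dl (0.274). Within a library spi stood 1.20 to 1.89 times above Krn, and Krn 1.44 to 1.79 times above esg, so this order held in all 9 libraries as measured. The place of Krn is uncertain, since reads of an exon it shares with another gene may be among its own, which was not tested. The levels of upd3 and Dl overlapped, and their order cannot be told from these libraries. Dl, vn and upd3 reached 1 RPKM in 0 of 9 libraries and were therefore outside the main test, which covered 3 of the 6 genes. No member passed the filter through 1 diet alone, since spi, Krn and esg were above 1 RPKM in all 9 libraries.

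**Figure D1:**
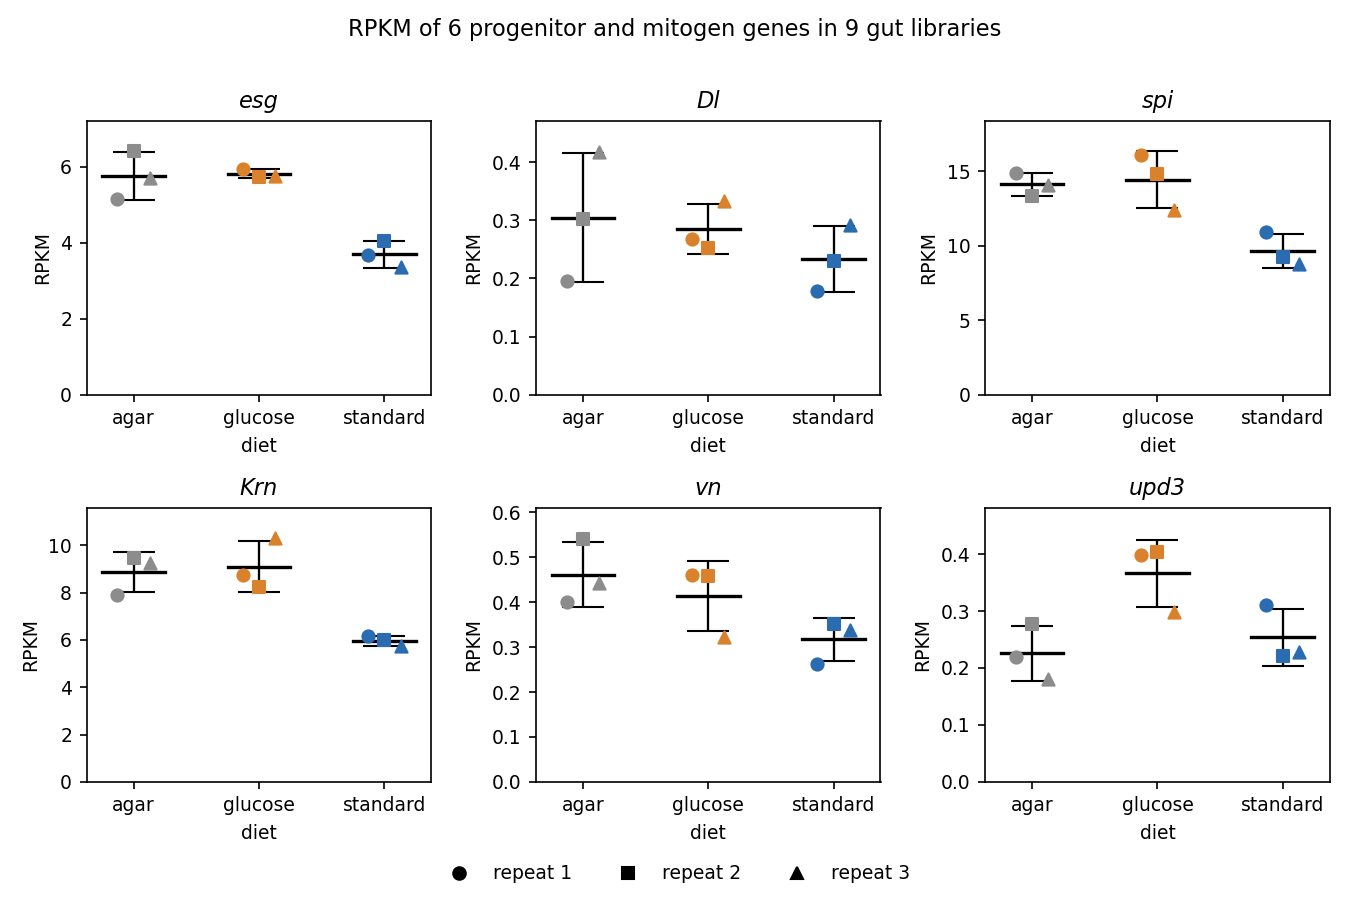
RPKM of the 6 genes (vertical axes, each starting at 0) by diet, with 1 point per library, a bar at the mean and whiskers of 1 SD (n = 3). For esg, spi and Krn every standard library lies below every agar and glucose library, and for upd3 every glucose library lies above every agar library.

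The transcription factor Escargot, of the Snail family, keeps stem cells and enteroblasts in their progenitor state and is the usual marker of both. Its RPKM was 5.17, 6.41 and 5.70 with agar, 5.95, 5.74 and 5.76 with glucose, and 3.68, 4.06 and 3.36 with standard food, for repeats 1, 2 and 3. The means were 5.76 ± 0.624, 5.82 ± 0.119 and 3.70 ± 0.352 (SD, n = 3). The agar and glucose libraries overlapped and all 6 lay above the 3 standard libraries. These values rest on 338 to 564 reads per library. In bulk tissue, fewer cells of a type and less RNA per cell cannot be told apart.

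Delta, the Notch ligand found on the stem cells themselves, was measured near the limit of the data. Its RPKM was 0.195, 0.302 and 0.417 with agar, 0.268, 0.252 and 0.334 with glucose, and 0.178, 0.229 and 0.292 with standard food. The 3 diets overlapped. On about 32.2 to 79.4 reads per library, the spread between agar libraries alone (36.3% of their mean) was larger than the distance between any 2 diet means. The order of the repeats was more regular than that of the diets: repeat 3 lay above its diet's mean on agar, glucose and standard medium (by 0.52, 0.24 and 0.35 on the log2 RPKM scale) and repeat 1 below it (-0.57, -0.07 and -0.36).

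Spitz, a membrane-bound EGFR ligand released by cleavage, was the most abundant of the 6 transcripts. Its RPKM was 14.9, 13.4 and 14.1 with agar, 16.1, 14.8 and 12.4 with glucose, and 10.95, 9.28 and 8.76 with standard food. The diets gave means of 14.1 ± 0.777, 14.4 ± 1.90 and 9.67 ± 1.15 (SD, n = 3). As for esg, the agar and glucose libraries overlapped and all standard libraries were lower. Here the gap was narrower, with glucose replicate 3 at 12.4 against standard replicate 1 at 10.95.

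Keren, the other ligand of the spitz type, was likewise lowest on standard medium. Its RPKM was 7.91, 9.45 and 9.25 with agar, 8.74, 8.25 and 10.3 with glucose, and 6.16, 6.004 and 5.75 with standard food, with means of 8.87 ± 0.836, 9.10 ± 1.08 and 5.97 ± 0.208 (SD, n = 3). The lowest agar library was above the highest standard library. The reads behind it numbered 344 to 544 per library.

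Krn is the 1 member whose annotated exons overlap another gene's. In the BDGP6.54 annotation its first exon is shared with Ndfip on the same strand, over 289 of the 1354 exon bases of Krn (21.3%). Ndfip, a membrane adaptor of ubiquitin ligases, stood at 12.4 to 20.7 RPKM. If its reads were spread evenly, 158.0 to 259.7 of them per library would lie in the shared exon, beside 344 to 544 reads of Krn. Ndfip itself was higher on glucose and on agar than on standard medium (0.54 ± 0.0957, SE, in both, limma adjusted p = 0.0176 and 0.00652). After median-ratio scaling its differences were 0.25 and 0.22 (0.202 and 0.198), and after quantile normalization 0.32 and 0.25 (0.144 and 0.143). The glucose call was also lost without glucose replicate 1, 2 or 3 (0.0611, 0.0644 and 0.0518) or standard replicate 3 (0.0585), and both with standard replicate 1 as the only standard library (0.242 and 0.119). Whether reads of the shared exon were counted for both genes was not tested, so the Krn values are uncertain to that extent.

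Vein, a secreted EGFR ligand made in the visceral muscle around the gut, was scarce. Its RPKM was 0.400, 0.541 and 0.442 with agar, 0.461, 0.458 and 0.323 with glucose, and 0.263, 0.351 and 0.338 with standard food. All agar libraries lay above all standard libraries, while the glucose libraries overlapped both other diets, with glucose replicate 3 the lowest of the 3. About 54.0 to 87.0 reads stood behind each value. Repeat 2 lay above its diet's mean in each diet (by 0.24, 0.16 and 0.16 on the log2 RPKM scale).

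The cytokine Unpaired 3, released by damaged or stressed enterocytes and a ligand of the JAK/STAT receptor Domeless, had another order of diets. Its RPKM was 0.219, 0.277 and 0.181 with agar, 0.398, 0.403 and 0.298 with glucose, and 0.311, 0.221 and 0.229 with standard food, with means of 0.226 ± 0.0484, 0.366 ± 0.0595 and 0.254 ± 0.0503 (SD, n = 3). All 3 glucose libraries were above all 3 agar libraries, and standard replicate 1 reached into the glucose range. These levels rest on 17 to 35 reads per library, or 56 reads on agar, 92 on glucose and 76 on standard medium. Exact Poisson 95% intervals, which cover counting error only, ran from 0.105 to 0.290 RPKM in agar replicate 3 and from 0.281 to 0.561 in glucose replicate 2, the lowest and the highest library, so the intervals of all 9 libraries overlapped.

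A comparison of the sugar diet with agar asked what sugar adds to a diet otherwise without nutrients. No difference between glucose and agar was called for the tested members, with 0 of 3 called by limma and 0 at an unadjusted p under 0.05. Over all tested genes 0.0373% were called higher on glucose and 0.249% lower, and with the repeat number as a block, where again 0 of 3 were called, 0.635% were higher and 1.74% lower. The differences on the log2(RPKM + 1) scale were 0.02 for esg (95% interval -0.19 to 0.22), 0.02 for spi (-0.25 to 0.30) and 0.03 for Krn (-0.20 to 0.27), with limma adjusted p of 0.996, 0.996 and 0.986. The sign of these small differences turned when single libraries were left out.

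The 3 scarce members were read from a fit of the deposited log2 RPKM of all 10245 genes, added after the data had been seen. In it upd3 had the largest difference of the 6 genes between glucose and agar, 0.71 ± 0.256 (SE, 1.63-fold, 95% interval 0.12 to 1.29), with a limma adjusted p of 0.425, or 0.216 with the repeat number as a block. In this fit 0.0293% of genes were called higher on glucose. The gene upd3 was the 1 member of 6 whose glucose and agar libraries did not overlap, against 5.04% of all genes, and 5.01% of tested genes, that were higher in all 3 glucose libraries. This held after median-ratio scaling, where 6.96% of tested genes were higher without overlap. An exact two-sided permutation test gave p = 0.1, the smallest that 3 against 3 libraries allow. The difference lay between 0.56 and 0.86 when any 1 library was left out. For vn it was -0.16 ± 0.229 (adjusted p = 0.934) and for Dl -0.04 ± 0.320 (0.998), and their sign turned with single libraries left out.

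The other comparisons set glucose and agar against complete food, and share the standard libraries. All 3 tested members were higher on glucose than on standard medium, as were 21.3% of all tested genes, with 0.896% lower. The differences on the log2(RPKM + 1) scale were 0.54 ± 0.0918 for esg, 0.53 ± 0.121 for spi and 0.53 ± 0.103 for Krn (SE), with limma adjusted p of 0.0171, 0.0242 and 0.0185. On the deposited log2 scale, with no pseudocount, these were 1.58-, 1.49- and 1.52-fold. Against the median of 0.25 over all tested genes they ranked at the 92.6th, 92.3rd and 92.3rd percentile of differences.

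For agar versus standard all 3 tested members were again higher, beside 37.7% of all tested genes higher and 2.23% lower. The differences were 0.52 for esg, 0.51 for spi and 0.50 for Krn with the same standard errors, and the limma adjusted p were 0.00644, 0.0142 and 0.00943. On the deposited log2 scale they were 1.56-, 1.47- and 1.48-fold. Their percentiles among all tested genes were 86.2, 84.9 and 83.9. For esg, spi and Krn no agar or glucose library overlapped a standard library, and 47.4% and 50.3% of tested genes were likewise higher without overlap. With the repeat number as a block the 3 genes kept their calls, where 42.1% of tested genes were called higher on glucose and 51% on agar.

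The calls of esg, spi and Krn against standard medium depended on how libraries were scaled. Median-ratio scaling brings the typical gene to the same level in every library. After it the all-gene median came to 0.02 and 0.01, and the members' differences to 0.29, 0.25 and 0.26 for glucose versus standard (limma adjusted p = 0.148, 0.318 and 0.210) and to 0.24, 0.19 and 0.19 for agar versus standard (0.134, 0.376 and 0.274). Thus 0 of 3 were called in either comparison, and 0.324% and 1.87% of all tested genes were called higher. At an unadjusted p under 0.05 were 2 and 1 of 3 members, beside 17.4% and 22.7% of all tested genes. Between glucose and agar 0.0373% of all tested genes were called higher after this scaling, and 9.77% had an unadjusted p under 0.05. Of the members 0 of 3 were in either share. The same held after quantile normalization, with 0 called in each and 3 and 1 at an unadjusted p under 0.05, beside 16.7% and 22.1% of all tested genes. The direction stayed upward in these scalings for all 3 genes. After median-ratio scaling esg and Krn still had no overlap with the standard libraries in either comparison (13.2% and 13.5% of tested genes were higher without overlap), and spi did overlap.

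The calls on glucose against standard medium also rested on single libraries, as did those of most other genes called in that comparison. For glucose versus standard no member was called without glucose replicate 1 (adjusted p = 0.0611 for esg and Krn, 0.0770 for spi), without glucose replicate 2 (0.0644 for esg and Krn, 0.0793 for spi) or without standard replicate 3 (0.0562 for esg, 0.0778 for spi, 0.0617 for Krn). In these fits the share of all tested genes called higher was 0.362%, 0.05003% and 0.861%, against 21.3% with all libraries, so the loss is not particular to the members. Krn alone was lost without glucose replicate 3 (0.0534), and spi alone without standard replicate 2 (0.0640), where 3.39% and 6.06% of tested genes were called higher. For agar versus standard the 1 loss was spi without standard replicate 3 (0.05005), with 21.1% of tested genes called higher. In that comparison 1591 to 3042 genes were called higher with 1 library left out, against 3031 with all. With standard replicate 1 as the only standard library no gene of all those tested was called by limma in either comparison, so 0 of 3 is no result about the members. There 2 of 3 had an unadjusted p under 0.05 in each, beside 18.5% and 29.4% of all tested genes, and the difference of esg was 0.54 and 0.53, of Krn 0.49 and 0.46 and of spi 0.36 and 0.34.

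The scarce members were not called against standard medium, where 15.5% of all 10245 genes were called higher on glucose and 30.1% on agar in the fit of deposited log2 values. For upd3 the difference was 0.53 ± 0.256 for glucose (adjusted p = 0.149) and -0.17 ± 0.256 for agar (0.629), and after median-ratio scaling it was 0.23 (0.732) and -0.52 (0.278). All agar libraries lay below all standard libraries for upd3 after that scaling, and overlapped before it; 11.5% of tested genes were lower without overlap. For vn it was 0.38 ± 0.229 on glucose (0.238) and 0.54 ± 0.229 on agar (0.0984), and the agar libraries did not overlap the standard ones (exact two-sided permutation p = 0.1, beside 42.8% of all genes higher without overlap, and 45.3% for glucose versus standard, where vn overlapped). After scaling the agar difference of vn was 0.19 (0.692) and the groups overlapped. For Dl the differences were 0.31 ± 0.320 and 0.35 ± 0.320 (0.482 and 0.421), and near 0 after scaling.

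**Figure D2:**
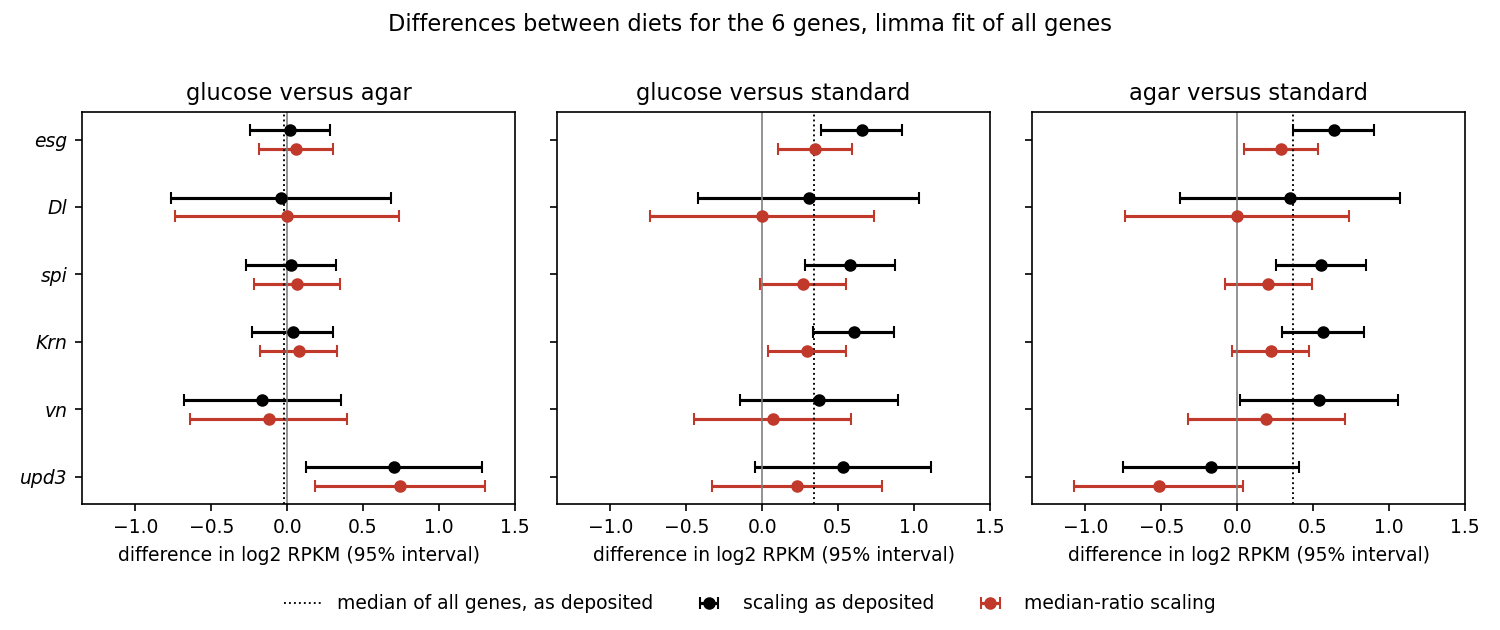
Differences in log2 RPKM between diets with 95% intervals for the 6 genes, from limma fits of all 10245 genes, with scaling as deposited (black) and after median-ratio scaling (red). The dotted line is the median of all genes as deposited. The points of esg, spi and Krn lie right of 0 in the comparisons with standard medium under both scalings, and upd3 lies farthest right in glucose versus agar.

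Proportions between the abundant members had nearly the same mean in each diet. The ratio of spi to Krn was 1.61 ± 0.246 on agar, 1.61 ± 0.360 on glucose and 1.62 ± 0.141 on standard medium (SD, n = 3), and that of Krn to esg 1.54 ± 0.0748, 1.57 ± 0.196 and 1.62 ± 0.125. These ratios do not depend on library scaling, and both overlapped between all diets. Both contain Krn, whose values are uncertain through the exon shared with Ndfip. Within glucose the ratio of spi to Krn spread from 1.84 in replicate 1 to 1.20 in replicate 3, since spi was lowest and Krn highest in that last library. The ratio of esg to upd3 was 26.1 ± 4.71 on agar, 16.2 ± 2.77 on glucose and 15.0 ± 3.31 on standard medium, with every agar library (23.1 to 31.5) above every library of the other diets (11.8 to 19.3). It rests on 17 to 21 upd3 reads in each agar library, so counting error is large. How many other pairs of genes separate in this way was not tested. The ratio of esg to Dl was 20.4 ± 6.41, 20.7 ± 3.04 and 16.6 ± 4.68, and overlapped between all diets.

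Markers of the other cell types in a dissected gut were measured beside the members. Among enterocyte markers 7 of 7 were at 1 RPKM or more. Their summed RPKM was 763 to 981 on agar, 854 to 869 on glucose and 632 to 676 on standard medium. As deposited, these sums were lowest on standard medium without overlap. So were 47.4% of single tested genes against agar and 50.3% against glucose. After median-ratio scaling 5 of 7 markers had a difference above 0 for glucose versus standard. For agar versus standard 4 of 7 did, and 0 were called in either. The sums themselves were not read after scaling. The 10 enteroendocrine markers summed to 5047 to 6244, 5043 to 5527 and 4664 to 5398, led by the peptide gene Dh31 (5175 as the mean of 9), with 8 of 10 at 1 RPKM or more and the defining factor pros at 0.196. Muscle, the tissue in which vn is made, had 13 of 13 markers detected at 580 to 750, 544 to 770 and 509 to 717, and in each diet the lowest sum was in repeat 3. Fat body markers (5 of 7 in the files) summed to 264 to 378 RPKM on agar, 336 to 391 on glucose and 289 to 403 on standard medium. Of these the yolk protein gene Yp2 was lower on agar than on standard medium (-1.24, limma adjusted p = 0.0196, and -1.58 and 0.0330 after median-ratio scaling). That call was lost after quantile normalization (0.0779), without standard replicate 1 (0.0512) and with it as the only standard library (0.123). Tracheal markers summed to 5.17 to 9.65 over the 9 libraries. Haemocyte markers, from cells that also make upd3, had 0 of 3 at 1 RPKM and sums of 0.138 to 0.346. Neuron, Malpighian tubule and ovary markers summed to at most 9.22, 4.17 and 4.22. Their part in the members' values was not tested.

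Around the 6 genes, 9 lists of pathway and progenitor genes were read, with 97 genes, 90 of them in the files and 60 tested. Between glucose and agar 0 of 60 were called by limma and 4 had an unadjusted p under 0.05, beside 10.5% of all tested genes, and the median difference was 0.05. On glucose 18 of 60 were higher than on standard medium and 0 lower, or 30% beside the 21.3% of all tested genes, with a median of 0.28 beside 0.25. With the repeat number as a block this count was 34, or 56.7% beside 42.1% of all tested genes, while for glucose versus agar it was 2 higher, or 3.33% beside 0.635%. On agar 20 of 60 were higher and 0 lower, or 33.3% beside 37.7%, with a median of 0.27 beside 0.28, and with the block 28 were, or 46.7% beside 51%. After median-ratio scaling, as after quantile normalization, 0 of 60 were called in each comparison, while 4 and 9 had an unadjusted p under 0.05 against standard medium after the first of these, beside 17.4% and 22.7% of all tested genes. Of the 60 genes, 58 had a difference above 0 for glucose and 54 for agar against standard medium as deposited, beside 86.1% and 84.8% of all tested genes. After median-ratio scaling 40 and 30 did, beside 53.7% and 51.7%. Every list gene called as deposited kept an upward difference under both of these scalings, apart from mib1 for glucose versus standard (-0.00018 after quantile normalization). The count of 18 came to 0 without glucose replicate 1, to 0 without glucose replicate 2, to 1 without glucose replicate 3, to 2 without standard replicate 2, to 1 without standard replicate 3, to 8 without standard replicate 1 and to 12 without agar replicate 2, while the calls over all genes fell as well. The count of 20 came to 11 without agar replicate 2 and to 13 without standard replicate 3. Both were 0 with standard replicate 1 as the only standard library.

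On the receiving side of the EGFR ligands the receptor gene Egfr stood at 3.57 ± 0.233 RPKM on agar, 3.49 ± 0.0906 on glucose and 2.72 ± 0.209 on standard medium, and was higher on glucose and agar than on standard medium by 0.27 and 0.30 (limma adjusted p = 0.0364 and 0.0173). After median-ratio scaling its differences were 0.04 and 0.03, and after quantile normalization 0.0085 and 0.03. Of 10 Ras and MAP kinase genes 3 were higher on glucose and 4 on agar, beside 21.3% and 37.7% of all tested genes. Among them were the adaptor drk (0.45 and 0.49), the GTPase Ras85D (0.39 and 0.45) and the phosphatase csw (0.40 and 0.34). The Raf kinase phl was higher on agar (0.30). After median-ratio scaling or quantile normalization 0 of the 10 were called in either comparison. Of 5 nuclear effectors and feedback genes 0 and 1 were higher, the 1 being the MAP kinase phosphatase Mkp3 on agar (0.36, adjusted p = 0.0134). As deposited 5 and 4 of the 5 had a difference above 0, with medians of 0.09 and 0.12 beside 0.25 and 0.28 over all tested genes. After median-ratio scaling 1 of 5 was above 0 in each comparison, and after quantile normalization 0 and 1.

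On the JAK/STAT side 3 of 6 tested genes were higher than on standard medium on glucose and 3 on agar. They were the transcription factor Stat92E (0.50 and 0.46) and the pathway's negative regulators Ptp61F (0.31 and 0.30) and Su(var)2-10 (0.29 and 0.41). Over all tested genes 21.3% and 37.7% were called higher, and after median-ratio scaling or quantile normalization 0 of the 6 were. Socs36E, a feedback inhibitor switched on by STAT, was singled out after its values had been seen. Its RPKM was 4.12, 3.35 and 2.97 with agar, 6.64, 6.51 and 5.97 with glucose, and 5.97, 3.98 and 3.00 with standard food. All glucose libraries lay above all agar libraries, as for 5.01% of tested genes. Standard replicate 1 was next to glucose replicate 3, while for upd3 it lay between glucose replicates 3 and 1. The difference between glucose and agar was 0.73 ± 0.186 (limma adjusted p = 0.168, and 0.0323 with the repeat number as a block). Across the 9 libraries Pearson's r of its log2 RPKM with that of upd3 was 0.860, rank 20 among 8036 tested genes, a description over libraries that share their diets and scaling. The upd3 values in it rest on 17 to 35 reads per library.

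**Figure D3:**
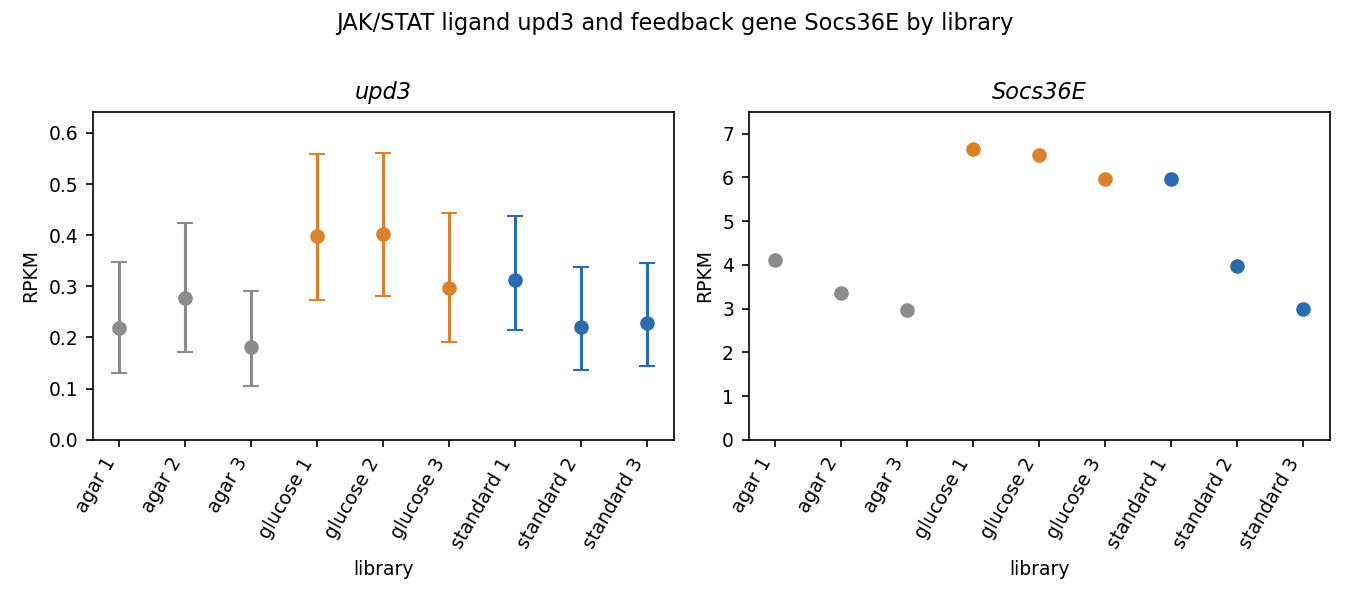
RPKM of upd3 (left, with exact Poisson 95% intervals from its reads) and of Socs36E (right) in each of the 9 libraries. In both panels the 3 glucose libraries lie above the 3 agar libraries, and standard replicate 1 is the highest of the standard libraries.

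Of 12 tested Notch genes 6 were higher on glucose than on standard medium and 5 on agar. They included the presenilin complex genes aph-1 (0.38 and 0.60) and Psn (0.31 and 0.42), and mib1, a ubiquitin ligase that activates Delta (0.26 and 0.32). The shares of all tested genes were 21.3% and 37.7%, and 0 of the 12 were called after median-ratio scaling or quantile normalization. The ligase neur was called on glucose (0.39, adjusted p = 0.0266) and had a difference of 0.26 on agar (0.0550). E(spl)mbeta-HLH, a transcriptional target of Notch, stood at 4.64 ± 1.43 on agar, 7.41 ± 0.765 on glucose and 3.79 ± 0.452 on standard medium. It was higher on glucose than on standard medium (0.81, limma adjusted p = 0.0221), and its difference of 0.60 from agar had an adjusted p of 0.228, or 0.0392 with the repeat number as a block. After median-ratio scaling the difference from standard medium was 0.56 (limma adjusted p = 0.164), and after quantile normalization 0.55 (0.180). That call was also lost without glucose replicate 1, 2 or 3 (0.0688, 0.0732 and 0.0518) or standard replicate 2 or 3 (0.0569 and 0.0723). With the block and median-ratio scaling it was kept (0.0407). The receptor gene N was at most 0.296 RPKM, below the filter, as was Dl.

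Among progenitor transcription factors 2 of 5 tested were higher on glucose than on standard medium and 1 on agar. The Id-type repressor emc was called in both (0.49 and 0.57), and the SoxE factor Sox100B on glucose (0.32, adjusted p = 0.0460). Of 7 stress kinase (JNK) genes 3 and 3 were higher, with the JNK phosphatase puc (0.55 and 0.38) and the tumour necrosis factor ligand egr (0.40 and 0.35) in both, the Fos factor kay on glucose (0.61) and the kinase bsk on agar (0.51). Of 11 other gut growth signals 0 and 2 were higher, the 2 being the growth factor Pvf1 (0.75) and the Yorkie partner sd (0.41) on agar. Beside these lists stand the shares of 21.3% and 37.7% of all tested genes. After median-ratio scaling or quantile normalization 0 genes of these lists were called. Of 14 cell division genes 1 was tested and 0 called. The replication gene PCNA stood at 0.941 ± 0.259 RPKM on agar, 1.05 ± 0.106 on glucose and 1.25 ± 0.337 on standard medium, and Mcm6 at 0.733 ± 0.249, 0.769 ± 0.0989 and 0.716 ± 0.212. For both genes the 3 diets overlapped.

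**Figure D4:**
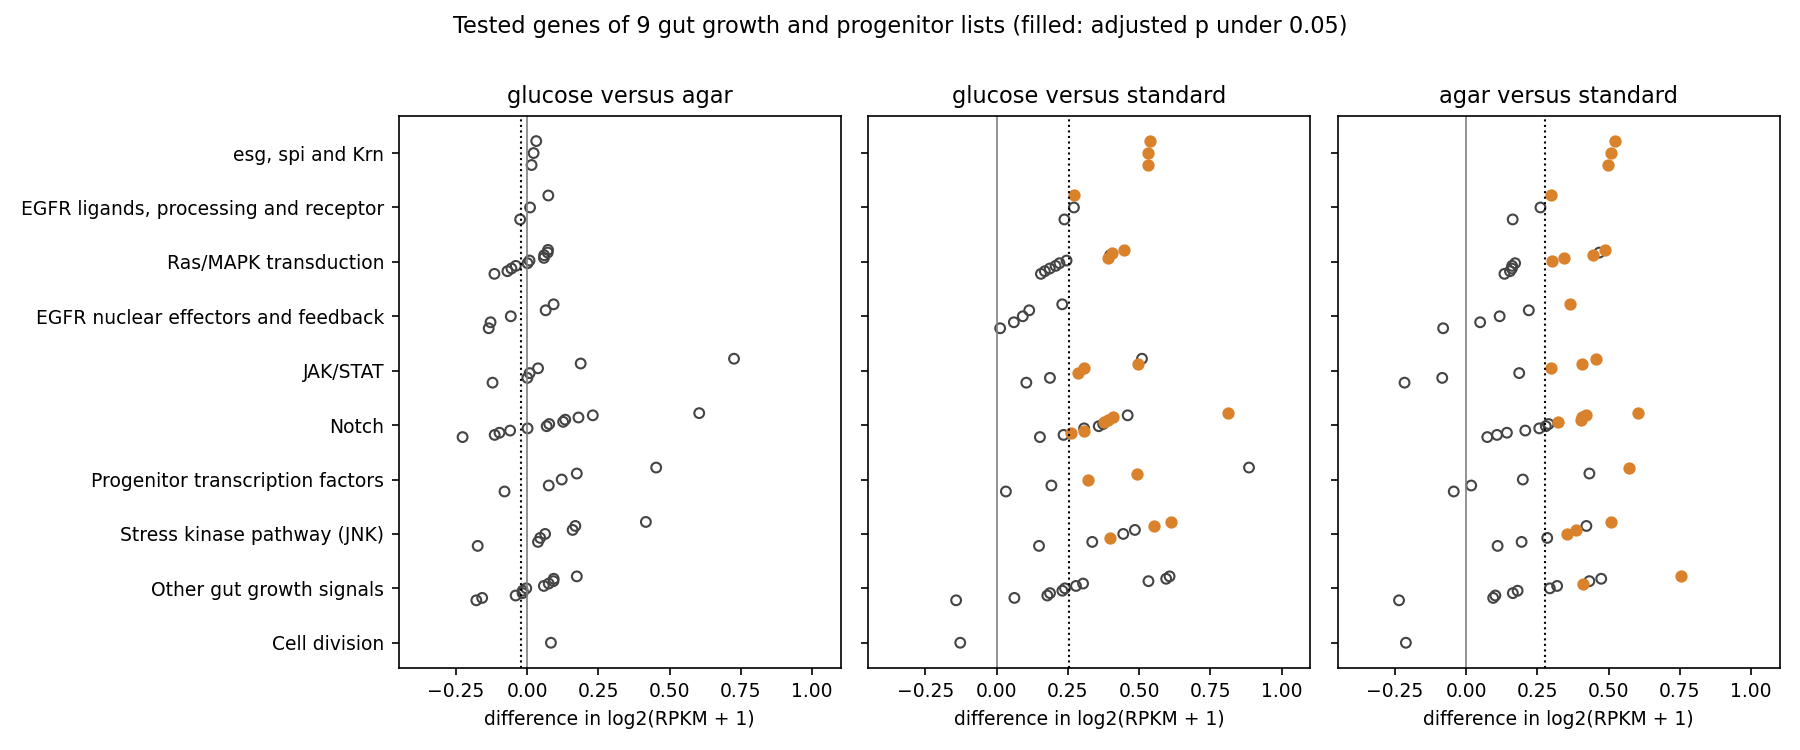
Differences on the log2(RPKM + 1) scale for the tested genes of the 9 lists and for esg, spi and Krn, 1 point per gene, filled where the limma adjusted p was under 0.05. The dotted line is the median of all tested genes. Points lie on both sides of 0 for glucose versus agar and mostly right of 0 against standard medium.

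The genes whose pattern over the 9 libraries was most like that of a member were named from 4358 others with a mean of at least 5 RPKM. For esg these were PGRP-LA, of the peptidoglycan recognition family, with Pearson's r of 0.993, CG5642 (0.991) and ics (0.989). For spi they were vsg (0.979), CG2950 (0.976) and the nuclear receptor gene Hnf4 (0.976), and for Krn CG31102 (0.983), CG3838 (0.983) and M6 (0.981). PGRP-LA stood at 9.85 ± 1.05, 9.82 ± 0.101 and 5.53 ± 0.390 RPKM on agar, glucose and standard medium, low on standard medium as esg was. Such high values were common, since 9.27% of the genes compared had an r above 0.9 with esg, 7.43% with Krn and 3.40% with spi. The libraries share their diets and scaling, and r is given as a description.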

How the data were processed

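Per the labels, Trizol RNA went into stranded mRNA libraries. The tools named are CASAVA 1.82, Bowtie2 2.1 and limma, per the submitters' processing notes. Build, annotation and strand setting of the counting were not given in the sources used here. Each file deposited by the authors held log2 RPKM per gene, from which linear RPKM was computed. A gene's value fitted the log2 of its reads plus 0.5 over library total plus 1 and length, with transcripts averaged. Library totals were solved from it with BDGP6.54 transcript lengths, and reads were whole within 1e-04 for 61.2% to 61.3% of 3317 genes with 1 transcript. Where a length differed, lengths within 50 bases were searched, which gave whole reads in all 9 libraries for esg and upd3. Reads of spi, Dl and vn, with several transcripts, are approximate.

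One limma fit with a mean per diet, a variance trend and empirical Bayes moderation was made on log2(RPKM + 1) for the 8036 genes that reached 1 RPKM in 3 or more libraries. Benjamini-Hochberg adjusted p under 0.05 over all tested genes is a call. The members and lists were chosen with earlier results of these data known. Named are all members, up to 3 called genes per list, comparison and direction by smallest p, the 2 most abundant genes of a list without calls, and the 3 genes most like each tested member. A number marks a biological repeat in the labels. Libraries sharing a number had residual correlations of 0.172 to 0.590, and other pairs -0.529 to 0.287. Residuals were centred within each diet, so the correlations of the other pairs are not independent of those. The repeat number was therefore used as a block in alternative fits. The main fit, the fits with a library left out and the permutation tests do not use it.

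Alternatives were pseudocounts of 0.1 and 5, the deposited log2 values, no filter, a filter of 5 RPKM, median-ratio scaling, quantile normalization, the 6 compared libraries alone, the repeat block with and without scaling, library weights and each library left out. The deposited log2 values with no filter, the same with median-ratio scaling, with the block or with each library left out, and a fit whose only standard library is replicate 1, were chosen after seeing the data. The fit was tested on simulated data. Fits were made in R 4.3.3 with limma 3.58.1, tables in pandas 2.3.3 and NumPy 2.4.6 under Python 3.11.15, and plots in Matplotlib 3.10.9.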

Additional observations from a re-analysis of the deposited data

How the results depend on the processing

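The 3 members called higher on glucose than on standard medium, and the 3 called higher on agar, came to 0 after median-ratio scaling, quantile normalization, the repeat block with median-ratio scaling, and with standard replicate 1 alone. With single libraries left out these counts were 0 to 3 and 2 to 3. All 3 kept their calls in both comparisons under the other 8 alternatives, of which the filter of 5 RPKM is no support for esg, which passed it only through its agar and glucose libraries. The block changed no call of a member, with adjusted p of 0.00927 to 0.0124 for glucose versus standard. The sign for glucose versus agar turned for esg (-0.025) and Krn (-0.040) with library weights, and with libraries left out for esg (-0.048 to 0.084), spi (-0.056 to 0.12), Krn (-0.052 to 0.093), Dl without agar replicate 3 (0.22) or glucose replicate 2 (0.042) and vn without glucose replicate 3 (0.0064). Dl for glucose versus standard was -0.00080 after median-ratio scaling. The cause was not tested. Over all genes the calls on glucose against agar were 3 higher and 20 lower, and 0 to 58 and 1 to 140 under the alternatives. Against standard medium 1715 were higher and 72 lower on glucose (0 to 3591 and 0 to 295), and 3031 and 179 on agar (0 to 4096 and 0 to 680). Of the 60 list genes, the block with median-ratio scaling called 2 higher for glucose versus agar, 2 higher for glucose versus standard, and 1 higher and 6 lower for agar versus standard. Over all tested genes it called 0.722% and 1.98% higher in the first comparisons, and 5.89% higher and 8.46% lower in the last. The 6 lower genes were ex, Socs36E (-0.49), PCNA (-0.39), sty, GATAe and dome, and the 1 higher was Pvf1. For upd3, Dl and vn the depth of 17 to 87.0 reads limits the precision.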

Other observations

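Some genes of the lists followed the repeat number in the way Dl did, and were picked after their values had been seen. The Notch receptor gene N was at 0.137, 0.156 and 0.273 RPKM in agar repeats 1, 2 and 3, at 0.155, 0.194 and 0.296 on glucose and at 0.114, 0.187 and 0.251 on standard medium, highest in repeat 3 of each diet. The growth regulator Myc was at 4.39, 8.49 and 15.3 with agar, 8.42, 10.2 and 19.3 with glucose, and 2.92, 6.09 and 11.2 with standard food. Within each repeat it ran from glucose through agar to standard medium, and within each diet repeat 3 was highest. Its difference was 0.89 for glucose versus standard (limma adjusted p = 0.197, and 0.00902 with the repeat number as a block) and 0.43 for agar versus standard (0.509, and 0.0266 with the block). With the block 42.1% and 51% of all tested genes were called higher in these comparisons. With the block and median-ratio scaling the Myc differences were 0.62 (0.0478) and 0.13 (0.529), beside 1.98% and 5.89% of all tested genes called higher. The zinc finger gene zfh2 was highest in repeat 3 of each diet too, at 0.729, 0.548 and 0.457. The sum of the neuron markers was highest in repeat 3 of each diet (9.22, 9.04 and 8.18) and that of the cell division genes in repeat 2 (6.54, 7.41 and 5.86).

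The proneural gene sc, which directs progenitors to the enteroendocrine fate, was at 0.119, 0.209 and 0.136 RPKM with agar, 0.138, 0.0439 and 0.178 with glucose, and 0.0216, 0.0555 and 0.00785 with standard food, below the filter in all 9 libraries. In the standard libraries 1 read per kilobase stood for 0.0207 to 0.0228 RPKM. The sc values there are near that floor and rest on very few reads, so the size of any difference between diets cannot be told. The progenitor factor Sox21a ranged from 0.606 to 1.20, with agar overlapping both other diets. As deposited, its glucose libraries (0.769 to 1.03) lay above the standard ones (0.643 to 0.721), as for 45.3% of all genes. Whether they overlap after median-ratio scaling was not tested. The cyclin gene CycB was at 1.52 in glucose replicate 2 and at 0.412 to 0.600 in the other 8 libraries. The ovary gene osk was at 2.14 in that same library and at most 0.0966 elsewhere. What part ovary RNA has in glucose replicate 2 was not tested.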
